A study of Homo sapiens with 8 samples.

Results

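The early response genes described here are IER2, IER3 and IER5, the mRNA-binding ZFP36, ZFP36L1 and ZFP36L2, the transcription factors KLF4, KLF6 and KLF10, and the antiproliferative gene BTG1. They were chosen by gene symbol, and each of the 10 matched 1 of the 58440 genes counted. PolyA RNA of HEK293 cells, which derive from human embryonic kidney, was sequenced with strand kept. The study combined a stable HTR1E line and a control line, both of which were deprived of serum for 3 h, and each was sampled after 1 µM serotonin for 1 h or with no added ligand. HTR1E is a serotonin receptor that couples to inhibitory G proteins. The labels describe 8 samples, 2 for each pairing of line and treatment, and do not say whether they came from separate cultures, so the spread between them may be technical.

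The names of the 8 libraries, each a column of counts, give the treatment and no cell line. Of these libraries, 4 are named Serotonin and 4 are named Control, the word the labels use for no ligand, and each name ends in the letter A or B, alone or followed by R. The A libraries and the B libraries are those that share this first letter, 2 in each treatment, and the values of such a pair are given with the library without the R first. The comparison made here is therefore serotonin against no ligand over both lines, with 4 libraries in each group. The 4 groups of line and treatment were not compared under the names of the lines. Serotonin was also compared with no ligand within the A libraries and within the B libraries. HTR1E itself was at 202 to 253 CPM, counts scaled to the library total, in the A libraries and at 0 to 0.399 CPM in the B libraries. No library was placed in a line by these values, and the libraries are called by the letters of their names throughout.

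Early response genes are transcribed within minutes to hours of a stimulus, without need for new protein synthesis, and many of them are induced through ERK and serum response factor or through cAMP and CREB. Their products include transcription factors and proteins that shorten the life of other mRNAs, and their own mRNAs are often short-lived. Serum withdrawal followed by a ligand is a usual setting in which they are studied.

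The libraries differed in depth and quality. They held 2604885 to 9072278 counted fragments, and Control B was the shallowest. The 10 most abundant genes took 55.9% of the counts in Control B, 34.1% in Serotonin BR, 28.8% in 1 of the serotonin A libraries and 19.9% to 24.9% in the other 5. The median correlation of log2 CPM with the other libraries was 0.842 for Control B and 0.888 for Serotonin BR, against 0.928 to 0.945 for the rest. Of the HEK293 and epithelial markers, VIM was at 301 to 455, KRT8 at 61.7 to 258 and KRT18 at 35.3 to 150 normalised CPM, whereas the renal factor PAX2 stood at 1.81 to 21.7 and NEFM at 0.588 to 5.2. Of the 6 markers of other cells, the blood marker PTPRC had 0 counts in every library, and ALB, PECAM1, MYOD1 and GFAP did not exceed 1.76 normalised CPM, but the collagen gene COL1A1 was at 12.1 to 44.1. The summed level of these 6 markers ran from 27.6 to 45.1 in the serotonin libraries and from 12.8 to 33.2 in the no ligand libraries, and its part in the results was not tested.

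The upstream sequences of the members are shown for the cAMP response element (CRE), the site bound by CREB, since the series includes work on that pathway. RefSeq promoter windows on GRCh38.p14 matched 7 of the 10 members, in 8 windows, and the 250 bases before each start were searched on both strands. IER3, ZFP36L2 and KLF10 had no window. The full CRE, TGACGTCA, was present in 1 of the 8 windows, against 1.65% of the 35116 windows in the table. Its shorter core, TGACG or CGTCA, which lies inside the full CRE, was present in 5 of the 8, against 21.2% of all windows. Both windows of ZFP36L1 are among these 5, and the set of all windows was not matched for base composition. The CArG box bound by serum response factor was found in 0 of the 8, against 1.16% of all windows. The 3 windows below hold the full CRE in ZFP36L1, a single core in IER2 and a pair of cores in BTG1, with the matches in capitals and the bases read 5′ to 3′ on the strand of the gene. They lie at chr14:68793417-68793666 on the minus strand, chr19:13150161-13150410 on the plus strand and chr12:92145847-92146096 on the minus strand.
ZFP36L1: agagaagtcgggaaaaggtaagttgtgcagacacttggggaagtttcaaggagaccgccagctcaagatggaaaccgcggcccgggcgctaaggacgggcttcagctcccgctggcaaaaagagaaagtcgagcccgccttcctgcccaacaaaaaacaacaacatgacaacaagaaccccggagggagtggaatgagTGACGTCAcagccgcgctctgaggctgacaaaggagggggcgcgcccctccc
IER2: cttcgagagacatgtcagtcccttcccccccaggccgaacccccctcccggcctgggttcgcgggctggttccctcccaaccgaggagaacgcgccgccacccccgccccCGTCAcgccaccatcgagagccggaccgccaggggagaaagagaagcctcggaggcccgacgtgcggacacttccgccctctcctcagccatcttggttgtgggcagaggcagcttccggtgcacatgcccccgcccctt
BTG1: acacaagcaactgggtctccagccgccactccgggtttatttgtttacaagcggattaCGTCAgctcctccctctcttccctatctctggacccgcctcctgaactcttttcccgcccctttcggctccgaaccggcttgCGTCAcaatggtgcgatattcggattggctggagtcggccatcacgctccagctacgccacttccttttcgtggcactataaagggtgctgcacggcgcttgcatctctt

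The CRE of ZFP36L1 began 52 bases before the start that follows its window. This window lies inside the span of the gene given below, so that start is not the outer end of the gene. Another ZFP36L1 window, chr14:68796244-68796493 at the outer end, held 0 full CREs and 1 core. The core of IER2 began 140 bases before its start, and those of BTG1 192 and 110 bases before theirs. KLF4, whose window is not shown, held 2 cores, 247 and 210 bases before its start. A match in letters is a description of these windows and not a site in use. The windows of ZFP36, KLF6 and IER5 held none of the 3 motifs, which says only that these letters were not in them.

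Levels per length, in TPM (transcript counts per length, scaled to the same total in each library), placed IER2 and IER3 at the top. IER2 on chromosome 19 (hg38, as for all genes here, 13150415 to 13154908, plus strand) had the highest median over the 8 libraries, 84.2 TPM with a range of 14.5 to 99.8. IER3 on chromosome 6 (30743199 to 30744554, minus strand) followed at 68.2 TPM, with a range of 8.58 to 90.6. BTG1 on chromosome 12 (92140278 to 92145897, minus strand) had a median of 47.8 TPM and IER5 on chromosome 1 (181088712 to 181092899, plus strand) one of 47.2 TPM. ZFP36 on chromosome 19 (39406813 to 39409412, plus strand) was at 31.5 TPM, and ZFP36L2 on chromosome 2 (43222402 to 43226609, minus strand) at 20.5 TPM. The lowest 4 medians were 11.8 TPM for KLF10, 11.5 TPM for KLF6, 9.88 TPM for ZFP36L1 and 8.5 TPM for KLF4. These 4 genes lie on the minus strand, KLF10 on chromosome 8 (102648779 to 102655902), KLF6 on chromosome 10 (3775996 to 3785281), ZFP36L1 on chromosome 14 (68787660 to 68796253) and KLF4 on chromosome 9 (107484852 to 107490482). ZFP36L2, at 17.2 TPM or more in every library, lay above the range of KLF10, which reached 16.1 TPM. All other neighbours in this order overlapped in range over the 8 libraries. Their order within each library was not tested. IER2 stood above 94.2% of the genes tested and KLF4 above 42.9% of them, and all 10 passed the filter on low counts.

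In the comparison of serotonin with no ligand, 0 of the 10 early response genes passed an adjusted p of 0.05 by edgeR's quasi-likelihood test. The same test called 0 of all 15779 genes tested, so percent called was 0, and 571 genes (3.62%) had an unadjusted p under 0.05, of which 0 were members. DESeq2 also called 0 genes, with 809 under the unadjusted threshold. The serotonin and no ligand libraries overlapped in level for every member, while 2.12% of all genes had groups that did not overlap. The median log2 fold change was 0.06 over the members and −0.01 over all genes tested, with 6 members above 0 and 4 below. In these bulk samples, fewer cells that express a gene and less of its RNA per cell cannot be told apart.

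**Figure D1:**
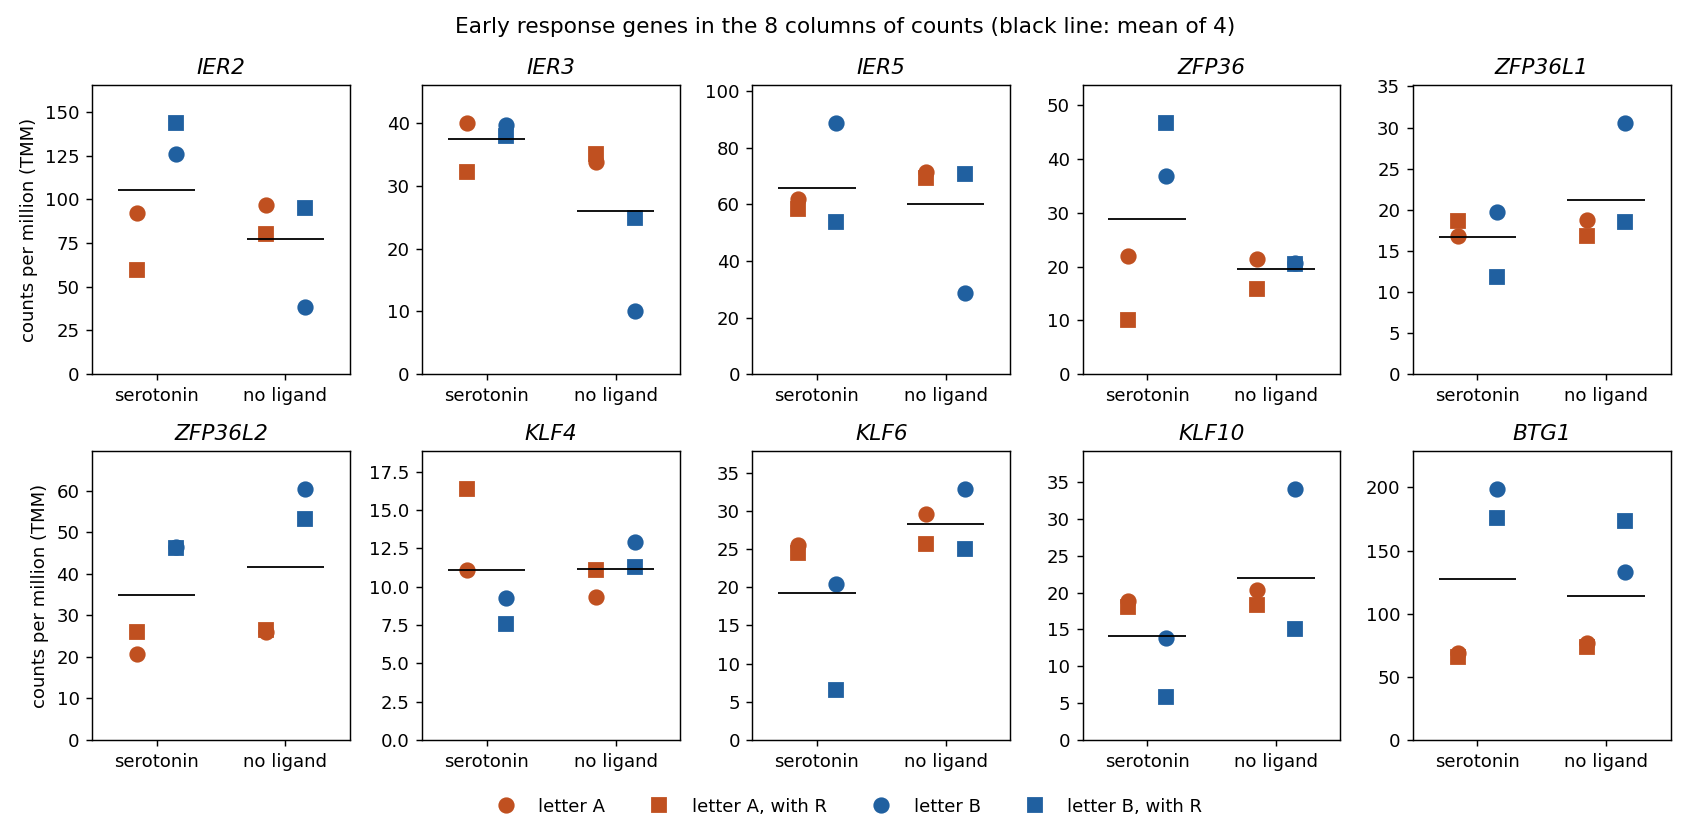
Level of each early response gene in CPM scaled by the trimmed mean of M-values (TMM, normalised CPM in the text), with the 4 serotonin libraries left of the 4 no ligand libraries; colour and shape give the letters at the end of the library name, and black lines are group means. The groups overlapped for all 10 genes, and Control B and Serotonin BR held many of the extreme values.

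IER2, a nuclear regulator of transcription, had 92, 59.8, 126 and 144 normalised CPM in the 2 A libraries, B and BR with serotonin, against 96.8, 80.5, 38.2 and 95 in the 2 A libraries, B and BR without ligand. The B libraries with serotonin were the highest and Control B the lowest, and the A libraries of both groups fell between. The means were 105 ± 37.3 with serotonin and 77.6 ± 27.3 without ligand (SD, n = 4 each), a log2 fold change of 0.43 ± 0.34 (SE) with an adjusted p of 0.836. It was 0.24 without Control B and also 0.24 without Serotonin BR. IER2 shares bases with an antisense gene that had 387 counts against 5658 for IER2, and the authors' counting used strand.

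IER3, a stress-induced regulator of apoptosis and a substrate of ERK, had 40.1, 32.2, 39.7 and 37.9 normalised CPM in the 2 A libraries, B and BR with serotonin, against 33.8, 35.1, 9.99 and 24.9 in the 2 A libraries, B and BR without ligand. Serotonin libraries were close to each other, and the low values were those of Control B, which rested on 17 counts, and of Control BR. The log2 fold change was 0.5 ± 0.32 (SE), with an adjusted p of 0.836, and it was 0.28 without Control B.

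IER5, known as a partner of heat shock factor 1, had 61.8, 58.3, 88.9 and 53.7 normalised CPM in the 2 A libraries, B and BR with serotonin, against 71.5, 69.4, 28.8 and 70.9 in the 2 A libraries, B and BR without ligand. All no ligand libraries but Control B lay close together and above 3 of the 4 serotonin libraries. The log2 fold change was 0.11 ± 0.3 (SE), with an adjusted p of 0.951, and it was −0.08 without Control B and −0.05 without Serotonin B.

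ZFP36, also called tristetraprolin, binds AU-rich elements in mRNAs and recruits the CCR4-NOT deadenylase. It had 21.9, 10.1, 36.8 and 46.8 normalised CPM in the 2 A libraries, B and BR with serotonin, against 21.4, 15.9, 20.6 and 20.5 in the 2 A libraries, B and BR without ligand. Serotonin B and BR were the highest of all and 1 of the serotonin A libraries, with 60 counts, was the lowest. ZFP36 averaged 28.9 ± 16.2 with serotonin and 19.6 ± 2.5 without ligand (SD, n = 4 each), a log2 fold change of 0.56 ± 0.39 (SE) with an adjusted p of 0.836. It was 0.24 without Serotonin BR and 0.84 without the serotonin A library that was lowest.

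The ZFP36 paralogs ZFP36L1 and ZFP36L2 bind the same class of element. ZFP36L1 had 16.8, 18.6, 19.7 and 11.8 normalised CPM in the 2 A libraries, B and BR with serotonin, against 18.7, 16.8, 30.6 and 18.5 in the 2 A libraries, B and BR without ligand. It was nearly level in 6 libraries, lowest in Serotonin BR and highest in Control B, and its log2 fold change was −0.31 ± 0.27 (SE), with an adjusted p of 0.838. It was −0.08 without Control B and −0.17 without Serotonin BR. ZFP36L2 had 20.8, 26, 46.5 and 46.1 normalised CPM in the 2 A libraries, B and BR with serotonin, against 26.1, 26.4, 60.5 and 53.3 in the 2 A libraries, B and BR without ligand. Its levels were 46.1 to 60.5 in the B libraries and 20.8 to 26.4 in the A libraries, which did not overlap. The letters did not overlap for 2 of the 10 members, ZFP36L2 and BTG1, and for 18.2% of all genes tested, so the members' share was near that of all genes. The log2 fold change of ZFP36L2 with serotonin was −0.24 ± 0.36 (SE), with an adjusted p of 0.903. That SE takes in the spread between the letters. With the first letter as a term, the same edgeR test gave −0.23 ± 0.17 (SE), with an adjusted p of 0.716. With 1 library left out and no such term, the log2 fold change ranged from −0.41 to 0, the 0 being without Control B.

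Of the Krüppel-like factors, KLF4, a regulator of differentiation and pluripotency, varied least. It had 11.1, 16.4, 9.29 and 7.58 normalised CPM in the 2 A libraries, B and BR with serotonin, against 9.35, 11.1, 12.9 and 11.3 in the 2 A libraries, B and BR without ligand, and its log2 fold change was 0.01 ± 0.29 (SE), with a range of −0.24 to 0.15 when 1 library was left out. KLF6, a zinc finger activator, had 25.5, 24.5, 20.4 and 6.57 normalised CPM in the 2 A libraries, B and BR with serotonin, against 29.6, 25.6, 32.9 and 25 in the 2 A libraries, B and BR without ligand. Serotonin BR, with 39 counts, was far below the other 7 libraries. The log2 fold change of KLF6 was −0.55 ± 0.36 (SE), with an adjusted p of 0.836, and it was −0.26 without Serotonin BR.

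KLF10, first described as a TGF-beta-inducible gene, had 18.8, 18.1, 13.8 and 5.89 normalised CPM in the 2 A libraries, B and BR with serotonin, against 20.4, 18.3, 34.1 and 15.1 in the 2 A libraries, B and BR without ligand. The A libraries were nearly level, and the extremes were Serotonin BR and Control B. Its log2 fold change was −0.6 ± 0.37 (SE), with an adjusted p of 0.836, and it was −0.32 without Control B and −0.34 without Serotonin BR. KLF6 and KLF10 were the pair with the most alike profiles among the members, with a Pearson r of 0.94 over the 8 libraries, which share depth and composition.

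BTG1, which binds the CNOT7 and CNOT8 deadenylases and restrains proliferation, had 68.7, 66, 199 and 176 normalised CPM in the 2 A libraries, B and BR with serotonin, against 76.5, 73.7, 133 and 173 in the 2 A libraries, B and BR without ligand. The B libraries lay between 133 and 199 and the A libraries between 66 and 76.5, with no overlap, as for 18.2% of all genes. With serotonin the log2 fold change was 0.16 ± 0.42 (SE), with an adjusted p of 0.949. That SE takes in the spread between the letters. With the first letter as a term, the same edgeR test gave 0.07 ± 0.2 (SE), with an adjusted p of 0.912. With 1 library left out and no such term, the log2 fold change ranged from −0.12 without Serotonin B to 0.44 without Control BR. LINC01619 overlaps BTG1 on the same strand and had 181 counts against 6905 for BTG1, so fragments from the shared bases are uncertain.

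With the letter as a term in the fit, 0 of the 10 members passed, 0 had an unadjusted p under 0.05 beside 3.71% of all genes, and their log2 fold changes ran from −0.62 for KLF10 to 0.55 for IER3. The serotonin effect was then read within the libraries that share a letter, 2 against 2 in each. Within the A libraries, 0 of the 10 members passed the test, as did 0 of all genes, and 0.254% of genes had an unadjusted p under 0.05. Fold changes of the members there ran from −0.23 for IER5 to 0.42 for KLF4 on the log2 scale. Within the B libraries, 0 of the 10 members passed and 2 of all genes did (0.0127%), while 5 members stood under the unadjusted threshold, where 27.8% of all genes also stood. Those 5 were IER3, ZFP36 and IER2, with log2 fold changes of 1.04 ± 0.35, 1.02 ± 0.36 and 0.99 ± 0.4 (SE), and KLF10 and KLF6, with −1.21 ± 0.45 and −1.05 ± 0.43. Their adjusted p-values were 0.102, 0.112, 0.141, 0.124 and 0.146. Of these, ZFP36 had its no ligand libraries close together, with 36.8 and 46.8 normalised CPM in Serotonin B and BR against 20.6 and 20.5 in Control B and BR.

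**Figure D2:**
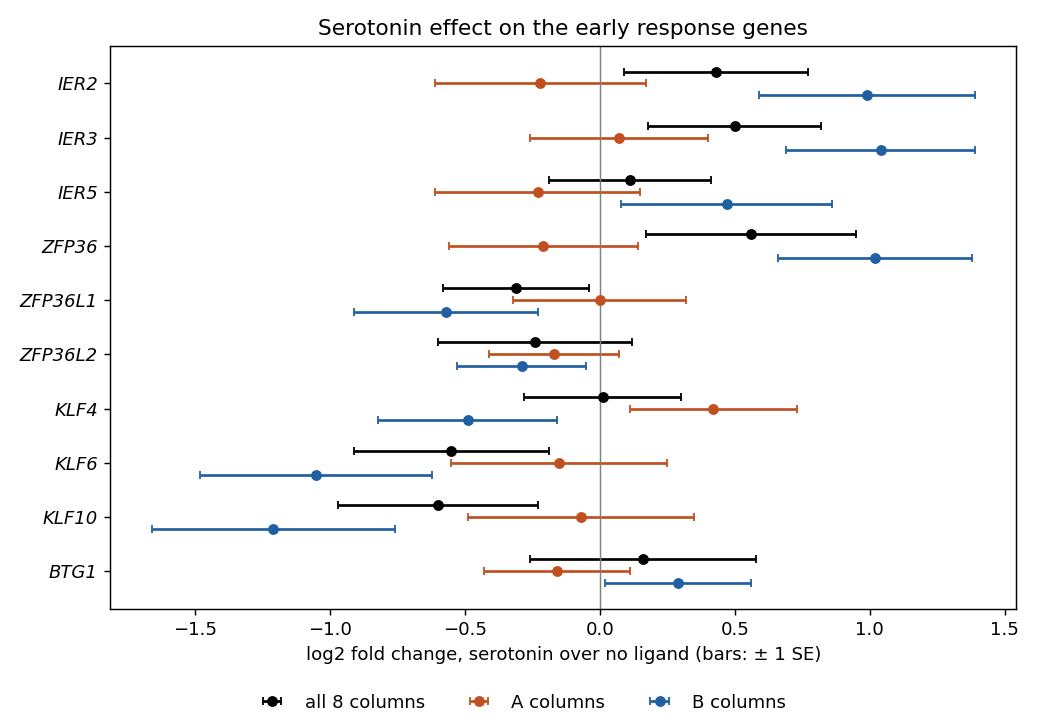
Log2 fold change of serotonin over no ligand for each early response gene, from all 8 libraries and within the A or the B libraries; bars are 1 SE either side. The values within the A libraries ran from −0.23 to 0.42, and those within the B libraries from −1.21 to 1.04.

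The difference between these effects, B libraries minus A libraries, was tested as an interaction and was called for 0 of the 10 members and 0 of all genes, with 15.4% of genes under an unadjusted p of 0.05. The difference for ZFP36 was 1.23 ± 0.5 on the log2 scale (SE), with an adjusted p of 0.306. IER2 and KLF10 differed by 1.21 ± 0.56 and −1.14 ± 0.61 (SE), with adjusted p-values of 0.325 and 0.366. Without Control B the differences were 0.72 for IER2 and −0.54 for KLF10, and that of ZFP36 ranged from 0.79 to 1.91 with 1 library left out. Without Control BR, 3401 of 16178 genes were called (21%). That fit leaves Control B, the shallowest library, alone to stand for no ligand in the B libraries, and it assumes that this library varies like those of the other groups. For 4 of the 10 members, IER2, IER3, IER5 and KLF10, the difference then passed, at 2.05, 1.89, 1.55 and −1.69 with adjusted p-values of 0.00958, 0.0116, 0.026 and 0.0324.

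Values in Control B and Serotonin BR moved with the base composition of the genes. Over 15761 genes, the deviation from the median library had a Spearman rho with the GC content of the longest transcript of 0.38 in Serotonin BR and −0.381 in Control B. It was −0.308 in 1 of the serotonin A libraries and between −0.216 and 0.329 in the other 5 libraries. Among the members, IER2, IER3 and ZFP36 had the highest GC content, at 61.7%, 58.5% and 57.3%, and KLF6, KLF10 and BTG1 the lowest, at 45.9%, 47.2% and 38.7%, beside a median of 48.6% over the genes tested. In the highest of 10 bins of genes by GC content the median deviation was 0.62 in Serotonin BR and −0.93 in Control B on the log2 scale, and in the lowest bin it was −0.33 and 0.26. IER2 deviated by 0.63 in Serotonin BR and by −1.29 in Control B, IER3 by 0.14 and −1.79, ZFP36 by 1.16 and −0.03, KLF6 by −1.94 and 0.38, and KLF10 by −1.62 and 0.91. BTG1, with the lowest GC content of the members, deviated by 0.75 in Serotonin BR and 0.35 in Control B. In the same order, KLF4, with 55% GC, deviated by −0.55 and 0.22, and ZFP36L2, with 54.4%, by 0.35 and 0.74. IER5, with 49.8%, deviated by −0.29 and −1.19, and ZFP36L1, with 49.5%, by −0.65 and 0.72. The bins with median GC of 44.6% and 47.3%, nearest KLF6 and KLF10, had median deviations of −0.17 and −0.11 in Serotonin BR. In Control B they had 0.14 and 0.12. The part of base composition in the members' values was not tested. Without Control B and Serotonin BR the log2 fold changes were 0.03 for IER2, 0.26 for IER3, 0.26 for ZFP36, −0.19 for KLF6 and −0.08 for KLF10, and 0 genes were called.

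**Figure D3:**
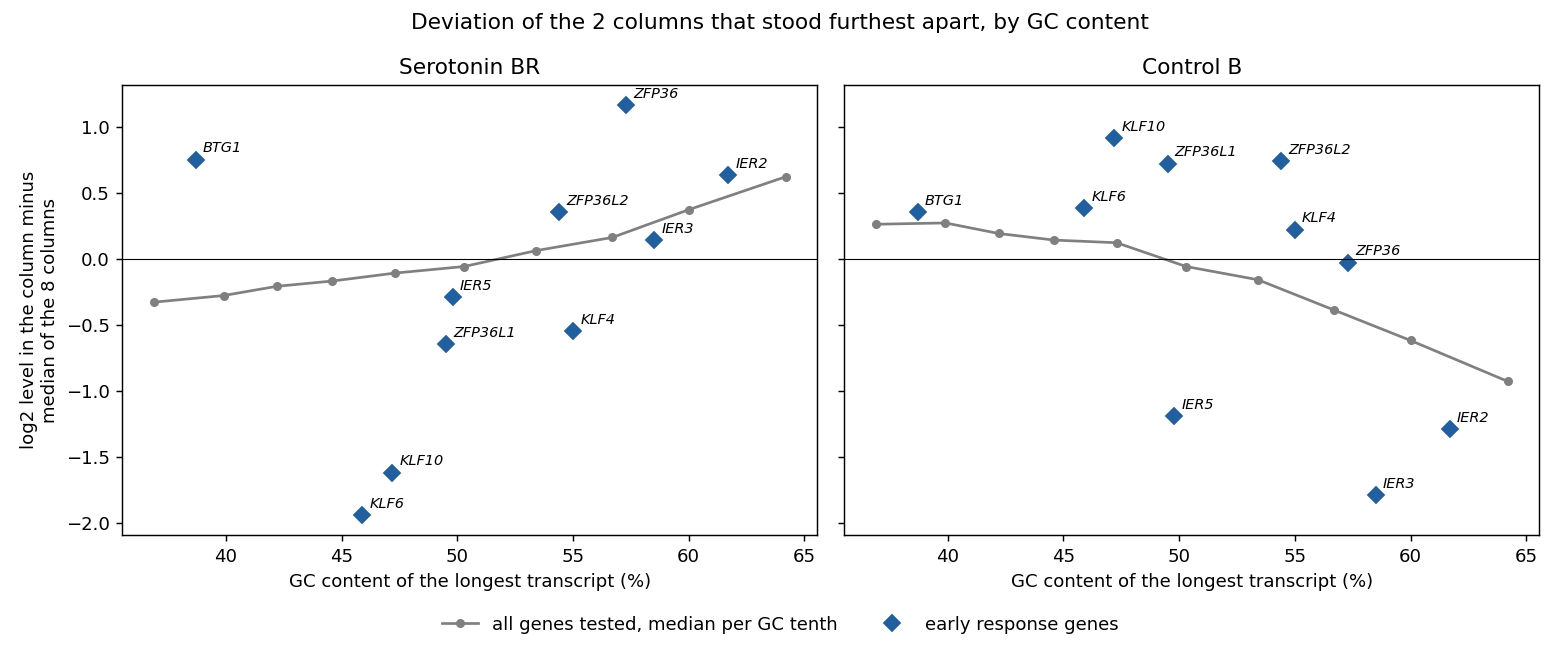
Log2 level minus the median of the 8 libraries in Serotonin BR and in Control B, against the GC content of the longest transcript in percent; diamonds are the early response genes, and the grey line is the median of all genes tested in each of 10 bins by GC content. The grey line rises from −0.33 to 0.62 in Serotonin BR and falls from 0.26 to −0.93 in Control B.

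Of 30 other immediate early genes, 28 were tested and 0 passed in the comparison over all libraries, with a median log2 fold change of 0.29 beside −0.01 over all genes. Within the B libraries, 2 of the 28 passed, both higher with serotonin, and they were the only 2 genes called there. The list was chosen with earlier results of these data known, so its share of the calls is only a description. These were NR4A1 and NR4A2, orphan nuclear receptors induced by cAMP and calcium signals. NR4A1 had 24.2, 18.1, 87.8 and 105 normalised CPM in the 2 A libraries, B and BR with serotonin, against 13.5, 11.5, 16.5 and 15.4 in the 2 A libraries, B and BR without ligand. Its log2 fold change within the B libraries was 2.6 ± 0.28 (SE), with an adjusted p of 0.0272, and within the A libraries it was 0.76 ± 0.27 with an adjusted p of 1. NR4A2 had 65.8 and 68.2 normalised CPM in Serotonin B and BR, against 13.5 and 8.41 in Control B and BR, a log2 fold change of 2.71 ± 0.31 (SE) with an adjusted p of 0.0272. The differences between the letters had an adjusted p of 0.296 for both genes, so they did not pass.

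Of 22 further members of the IER, ZFP36, KLF, BTG and TOB families, 15 were tested, and 0 passed in the comparison over all libraries, with a median of −0.22. CCR4-NOT is the deadenylase that ZFP36 and BTG proteins recruit. Of 12 genes listed for it, all 12 were tested, and 0 passed, with a median of −0.14. The 3 genes whose log2 CPM followed the members' median profile most closely over the 8 libraries were ALKBH6, HOTAIR and CDH7, with Pearson r of 0.928, 0.906 and 0.901. The members did not share 1 profile, since IER2 and KLF10 had an r of −0.83 with each other.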

How the data were processed

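Per the labels' protocols, polyA libraries were made with a stranded kit. Per the submitters' processing notes, cutadapt 3.4, FastQC 0.11.9, STAR 2.7.8a, SAMtools 1.12 and Subread 2.0.1 were used with hg38. Per the file headers, the authors deposited raw counts of fragments per gene from featureCounts, counted by strand on GENCODE annotation from duplicate-marked alignments. Gene lengths for TPM, in another deposited column, come from the same table.

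Libraries were grouped by the treatment word in their names. Genes were filtered with filterByExpr (minimum count 10) and tested with edgeR 4.0.16's quasi-likelihood test on TMM-scaled counts in R 4.3.3, with Benjamini-Hochberg adjustment over all 15779 genes at 0.05. DESeq2 1.42.0, other filters, each library left out, the letter as a term and fits within letters were alternatives. No pair of same-letter libraries in a group agreed within sampling noise. Members and lists were chosen with earlier results of these data known, and genes outside the lists were named by likeness to the members' median profile. Counting error alone limits values resting on few counts.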

Additional observations from a re-analysis of the deposited data

Results flagged for a closer look

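In 3 of 20 groups of 4 libraries checked, 10 genes in 2 treatments, 1 library stood apart by Dixon's ratio of gap to range. All 3 were no ligand groups. Chance alone marks about 1 group in 20 where the 4 values are independent draws from 1 population. Each group here held A and B libraries, and the genes share the same 8 libraries, so that rate does not apply directly. IER5 was lowest in Control B, at 28.8 normalised CPM, with a gap of 0.95 of the range. ZFP36L1 was highest in Control B, at 30.6 normalised CPM, with a gap of 0.86 of the range. ZFP36 was lowest in 1 of the no ligand A libraries, at 15.9 normalised CPM, with a gap of 0.849 of the range. Control B had the fewest counts of the 8 libraries and the largest share in its 10 most abundant genes, and the part of these in its values was not tested.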

How the results depend on the processing

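No member was called for serotonin against no ligand under any of the 18 alternatives run. IER3, KLF6 and KLF10 kept their direction in all 18, and ZFP36L2 was at 0 without Control B and below 0 in the others. The count of all genes called was 0 except without a filter on low counts, where it was 35, and within the B libraries, where it was 2. With each library left out it stayed at 0. For the difference between letters, DESeq2 called 77 genes, the fit without a filter 570, and the fits with 1 library left out 0 to 3401. Within the A libraries the log2 fold changes turned to −0.22 for IER2, −0.23 for IER5, −0.21 for ZFP36 and −0.16 for BTG1. KLF4 turned to −0.49 within the B libraries and to −0.01 with the letter as a term. Alternatives that left out Control B and Serotonin BR were chosen after seeing the data. There, IER5 was −0.02 and ZFP36L1 0.03, and with the letter as a term also IER2 −0.01, IER5 −0.04, ZFP36L1 0.03 and BTG1 −0.03. Without a serotonin A library as well, the one with 28.8% of counts in its 10 most abundant genes, ZFP36L1 was 0.02 and KLF4 −0.05. With 1 library left out, IER2 ranged from 0.24 to 0.62, IER3 from 0.28 to 0.66, ZFP36 from 0.24 to 0.84, ZFP36L1 from −0.4 to −0.08, ZFP36L2 from −0.41 to 0, KLF6 from −0.71 to −0.26 and KLF10 from −0.77 to −0.32. IER5 ranged from −0.08 to 0.2, KLF4 from −0.24 to 0.15, BTG1 from −0.12 to 0.44 and the difference for ZFP36L2 from −0.27 to 0.05. The cause of these changes was not tested. No paired analysis was possible because the library names do not carry the replicate numbers of the titles.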
